A study of Homo sapiens with 8 samples.

Results

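The miRNAs miR-6715 to miR-6895 are a run of late-numbered human miRNAs, most of which lie in introns of protein-coding genes. A row of the mature miRNA count table was taken when its name lay from miR-6715 to miR-6895, on either arm, and it was selected on its own reads, at least 10 raw reads summed over the 4 samples. By this rule 64 of the 317 rows of the number range were members, among 2026 rows in the whole table. Of the 317 rows, 240 had at least 1 read. The members were 43 3p arms, 20 5p arms and miR-6844, which has no arm in its name, and they came from 60 distinct precursors.

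The samples were small RNA libraries of HCT116, an established human colorectal carcinoma line. The cells were grown as spheroids in serum-free DMEM/F12 with B27, N2, basic fibroblast growth factor and epidermal growth factor, in ultra-low-attachment flasks. They were sorted with a CD44v6-FITC antibody into CD44v6-negative and CD44v6-positive cells, with propidium iodide to remove dead cells, and both groups shared this culture and stain. CD44v6 is a splice variant of the hyaluronan receptor CD44, and small RNA reads do not measure it. Each group had 2 samples, so the comparison rests on 1 cell line. Whether the cultures were separate is not stated in the labels, so p-values cover no more than the variation among these 4 samples, part or all of which may be technical.

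A mirtron is a miRNA hairpin whose ends are made by the spliceosome instead of by Drosha: a short intron is spliced out, debranched and folded, then cut by Dicer. In a tailed mirtron 1 end of the hairpin lies at an intron end and the other lies inside the intron, so that a tail is trimmed first. Vertebrate mirtrons are known for 3p arms rich in C and U, since the 3p arm carries the polypyrimidine tract and the AG that ends an intron. Their mature products are usually scarce.

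Sequences from the RefSeq miRNA table (GRCh38.p14) were matched by name for 52 of the 64 members. The first set holds the 3p members on which the levels described below turn, 5′ to 3′, with the seed (bases 2 to 8, the part that pairs with targets) in capitals, and shows the stretches of C and U and the terminal AG that most of them share.
miR-6798-3p: cUACCCCCcaucccccuguag
miR-6777-3p: uCCACUCUccuggcccccag
miR-6784-3p: uCUCACCCcaacucugccccag
miR-6805-3p: uUGCUCUGcucccccgcccccag
miR-6812-3p: cCGCUCUUccccugaccccag
miR-6803-3p: uCCCUCGCcuucucacccucag
miR-6737-3p: uCUGUGCUucaccccuacccag
miR-6786-3p: uGACGCCCcuucugauucugccu
miR-6765-3p: uCACCUGGcuggcccgcccag
miR-6824-3p: uCUCUGGUcuugccaccccag

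Of the 5p members, miR-6859-5p and the 5p arm of the miR-6777 hairpin are shown because they are rich in purines in place of pyrimidines.
miR-6859-5p: gAGAGGAAcaugggcucaggaca
miR-6777-5p: aCGGGGAGucaggcaguggugga

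The 52 sequences held 50 distinct seeds, and only 2 seeds were shared, each by a pair of 3p members printed here for that reason.
miR-6819-3p: aAGCCUCUguccccaccccag
miR-6877-3p: cAGCCUCUgcccuuggccucc
miR-6801-3p: aCCCCUGCcacucacuggcc
miR-6810-3p: uCCCCUGCucccuuguuccccag

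Whole hairpins of 3 members show how they sit in their introns, with the intron's terminal AG in capitals and, for MIR6765, also the GU that opens the intron. MIR6765 (chr14:105150778-105150864, minus strand) filled a whole 87-base intron of JAG2, a Notch ligand gene. MIR6798 (chr19:49009906-49009972, plus strand) ended a 101-base intron of RUVBL2, which encodes an AAA+ ATPase. MIR6777 (chr17:17813480-17813545, minus strand) ended an 89-base intron of SREBF1, a regulator of lipid synthesis.
MIR6765: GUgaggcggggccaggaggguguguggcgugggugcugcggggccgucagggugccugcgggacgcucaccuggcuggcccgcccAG
MIR6798: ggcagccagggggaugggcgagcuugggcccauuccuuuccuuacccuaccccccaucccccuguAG
MIR6777: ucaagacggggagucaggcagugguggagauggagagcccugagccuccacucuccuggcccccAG

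Depth set the precision of every value. The CD44v6-negative samples held 7880631 and 4592278 reads and the CD44v6-positive samples held 919802 and 154481. In this order of samples a single read was worth 0.127, 0.218, 1.09 and 6.47 RPM (reads per 1000000 reads), and a count of 0 allowed a level of up to 0.381, 0.653, 3.26 and 19.4 RPM (3 reads per library, counting error only). All 8 epithelial and intestinal marker miRNAs were present in every sample, at 29.6 to 11210 CPM (the same unit after TMM scaling between libraries), and so were the 3 miRNAs abundant in colorectal lines. Of the first list, miR-200a-3p, miR-141-3p and miR-429 were lower in both CD44v6-positive samples, and miR-200b-3p and miR-200c-3p overlapped between groups. In contrast, miR-192-5p, miR-194-5p and miR-215-5p were highest in CD44v6-positive sample 2. All 3 colorectal miRNAs were lower in both CD44v6-positive samples. The 13 markers of other cell types summed to 2436 and 1299 CPM in the CD44v6-negative samples and to 1164 and 1673 CPM in the CD44v6-positive samples, and only miR-206, a skeletal muscle miRNA, had no read in any sample. The liver miRNA miR-122-5p stood at 4.59, 3.99, 48.6 and 610 CPM and the red cell miRNA miR-451a at 24.9, 7.62, 15.1 and 281 CPM, so both were highest in CD44v6-positive sample 2, the shallowest library. The same held for miR-144-3p, miR-223-3p, miR-142-3p, miR-199a-3p and miR-214-3p. Others went the other way. The neural miRNA miR-9-5p stood at 1978, 946, 836 and 438 CPM and the endothelial miR-126-3p at 336, 267, 173 and 141 CPM. The neural miR-124-3p was also highest in CD44v6-negative sample 1, and the muscle miRNAs miR-1-3p and miR-133a-3p in CD44v6-positive sample 1. The part of these markers in the results was not tested.

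The members were scarce. Their summed reads ran from 10 to 118 with a median of 20, and the total over all 64 was 1711 reads. In all, 29 members had 10 to 19 reads, 29 had 20 to 49, and 6 had 50 or more. The most read member, miR-6723-5p, ranked 399 of 2026 rows by reads. Just inside the limit stood 6 members with 10 or 11 reads, miR-6733-5p, miR-6766-3p, miR-6783-3p, miR-6836-5p, miR-6857-3p and miR-6892-5p. Just outside it stood 18 rows of the range, 9 with 8 reads and 9 with 9 reads.

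Together the members took a small share of all miRNA reads, and that share was larger in both CD44v6-positive samples. It was 66.6 RPM in CD44v6-negative sample 1 (525 reads, exact 95% interval 61.0 to 72.6) and 174.2 in CD44v6-negative sample 2 (800 reads, 162 to 187). In CD44v6-positive sample 1 it was 311 (286 reads, 276 to 349) and in CD44v6-positive sample 2 it was 647 (100 reads, 527 to 787). The groups did not overlap, at 120 ± 76.1 against 479 ± 238 RPM (SD, n = 2). An exact two-sided permutation test of 2 samples against 2 was not run, since the smallest p it allows is 0.333. The order of the share across the 4 samples was the reverse of the order of their depth, and depth and group cannot be told apart. In sorted cells sequenced in bulk, more cells that make a miRNA and more of it per cell cannot be told apart either.

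The number of members seen was read at equal depth, since a deeper library detects more. With a read were 64, 64, 52 and 33 of the 64 members in CD44v6-negative samples 1 and 2 and CD44v6-positive samples 1 and 2. At 154481 reads drawn from each library, the expected numbers were 8.95, 18.8, 27.8 and 33. At equal depth the order was thus turned round, with the most members in the CD44v6-positive samples. Over the whole table the same calculation gave 478, 608, 547 and 627 rows, with CD44v6-positive sample 1 between the CD44v6-negative samples. Members were chosen by a summed count to which the deeper CD44v6-negative samples contributed most reads, and no member had 0 reads in a CD44v6-negative sample.

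**Figure D1:**
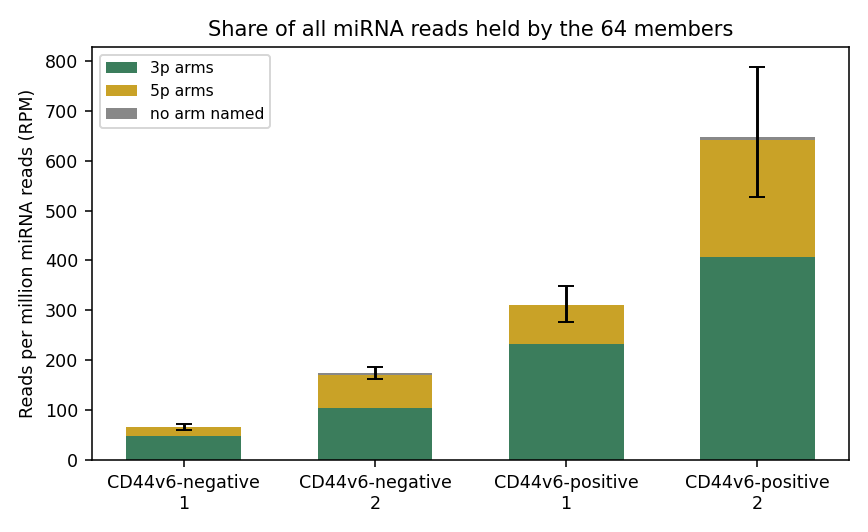
Share of all miRNA reads held by the 64 members in each of the 4 samples, in RPM, divided into 3p and 5p arms, with bars for the exact 95% interval of the whole share. The share ran from 66.6 in CD44v6-negative sample 1 to 647 in CD44v6-positive sample 2, and the 3p arms held most of it in each sample.

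The comparison of CD44v6-positive with CD44v6-negative cells asks which miRNAs go with the CD44v6-positive population. No member passed edgeR's quasi-likelihood test, and neither did any other miRNA. The test reached 26 of the 64 members, and 0 of them were called at an edgeR adjusted p under 0.05 (Benjamini-Hochberg), in either direction, against a background of 0 of 570 miRNAs (0% higher and 0% lower). At an unadjusted edgeR p under 0.05, 13 of the 26 stood higher in the CD44v6-positive samples and 0 lower. The background at that limit was 13% higher and 17.5% lower. DESeq2, run as an alternative, called 8 of the 20 members to which it gave an adjusted p, all higher, against 8% of all miRNAs higher and 6.29% lower. These 8 were miR-6735-5p, miR-6777-3p, miR-6784-3p, miR-6798-3p, miR-6805-3p, miR-6812-3p, miR-6819-3p and miR-6847-5p. With limma-voom 0 members were called, of 4 calls in all.

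Counts over the 26 tested members describe them and support nothing, because the filter on low counts let most of them in through the samples where they were high. In all, 16 of the 26 passed through both CD44v6-positive samples and no CD44v6-negative sample, and 10 passed with a CD44v6-negative sample. A single read in CD44v6-positive sample 2 was worth 5.21 CPM, above the filter's limit of 3.63 CPM. Among the 26, 22 had a log2 fold change above 0 (background 44.6%) and 4 below 0 (background 55.4%). Their median log2 fold change was 2.24, against -0.31 over all 570 miRNAs. The 2 CD44v6-positive samples stood apart from the CD44v6-negative ones on the upper side in 19 of the 26 (background 24.9%) and on the lower side in none (background 34.6%).

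A count over all 64 members avoids that filter, though the rows set beside it are not matched to the members in reads. Both CD44v6-positive samples stood above both CD44v6-negative samples in 24 members (37.5%), against 19.5% of all 851 rows with 10 or more reads. They stood below in 10 members (15.6%), against 38% of those rows, and the groups overlapped in 30. By arm, 16 of 43 3p members stood above and 5 below, and of the 20 5p members 8 stood above and 5 below. Of the 24 members above, 17 had 1 to 3 reads in CD44v6-positive sample 2 and 10 had a single read there. Fitted without a filter, 43 of the 64 had a log2 fold change above 0, against 31.3% of 1510 rows with a read, and 21 were below 0, against 68.7%. The median was 1.09 over members and -1.55 over those rows. Those rows needed only a single read, where members needed 10, so the values are not matched for reads.

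Leaving out samples moved these counts. Without CD44v6-positive sample 2, which held 0 reads of 31 members, 39 members stood above and 17 below, against 30.6% and 49.4% of rows. Without CD44v6-positive sample 1, 32 stood above and 31 below, against 34.1% and 55.9%. Without CD44v6-negative sample 1 the counts were 24 above and 14 below, against 24.6% and 46.8% of rows. Without CD44v6-negative sample 2 they were 26 and 13, against 27.1% and 46.1%.

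**Figure D2:**
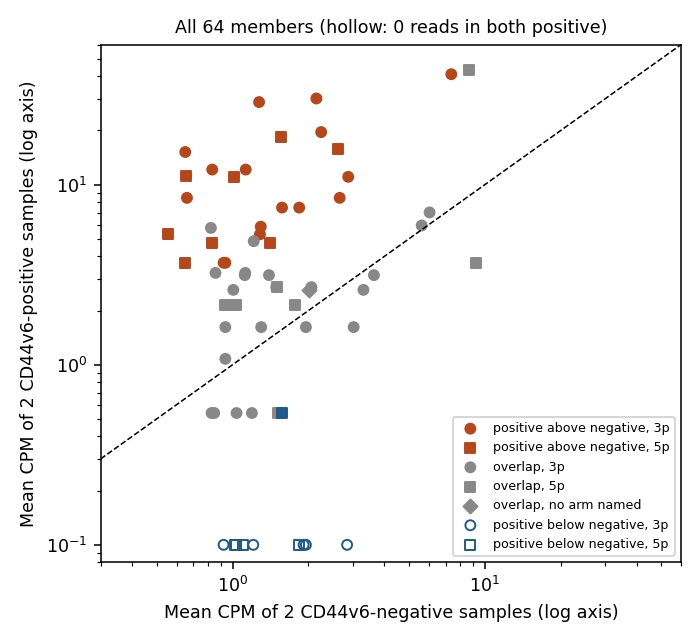
Mean level of each member in CD44v6-positive against CD44v6-negative samples, in TMM-scaled CPM on log axes, with circles for 3p arms, squares for 5p arms and colour for whether the groups overlapped. Members above the diagonal were higher in CD44v6-positive samples, and the 9 members with 0 reads in both of those samples lie at the lower edge.

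Among the 3p members, miR-6777-3p, from the SREBF1 intron, had the lowest edgeR adjusted p. Its reads in CD44v6-negative samples 1 and 2 and CD44v6-positive samples 1 and 2, the order used from here on, were 13, 10, 22 and 7, or 2.49, 1.81, 23.7 and 36.5 CPM. Both CD44v6-positive samples were above both others, at 30.1 ± 9.01 against 2.15 ± 0.477 CPM (SD, n = 2). The log2 fold change was 3.73 ± 0.74 (SE), with an edgeR adjusted p of 0.0787, so it did not pass. Leaving out each sample in turn gave 3.66 to 4.03. Before TMM scaling, its exact 95% interval was 0.878 to 2.82 and 1.04 to 4.005 RPM in the CD44v6-negative samples and 14.99 to 36.2 and 18.2 to 93.4 in the CD44v6-positive samples, which do not overlap between groups.

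The most read 3p member was miR-6798-3p, from RUVBL2. Its reads were 41, 38, 23 and 11, or 7.84, 6.89, 24.8 and 57.3 CPM. The groups were apart, at 7.37 ± 0.675 against 41.1 ± 23.0 CPM, and the log2 fold change was 2.39 ± 0.72 with an edgeR adjusted p of 0.117. CD44v6-positive sample 2 was the higher of its group.

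The pattern of miR-6784-3p, from an intron of the phospholipase gene PLCD3, was much like that of miR-6777-3p. It had 14, 10, 17 and 4 reads, or 2.68, 1.81, 18.3 and 20.8 CPM, and the CD44v6-positive samples were close to each other and above both CD44v6-negative samples. The log2 fold change was 3.08 ± 0.75, with an edgeR adjusted p of 0.104.

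By contrast, miR-6805-3p, from the ribosomal protein gene RPL28, varied widely within both groups. Its reads were 1, 13, 5 and 10, or 0.191, 2.36, 5.40 and 52.1 CPM, and CD44v6-negative sample 1 was the lowest of all. The log2 fold change was 4.21 ± 1.51 with an edgeR adjusted p of 0.132, and it ran from 2.32 without CD44v6-positive sample 2 to 6.82 without CD44v6-negative sample 2. Similar in size was miR-6812-3p, from PIGT, a subunit of the enzyme that attaches GPI anchors, with 3, 4, 4 and 5 reads. Its log2 fold change was 4.12 ± 1.16, at an edgeR adjusted p of 0.117.

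Several other 3p members had few reads and groups apart on the upper side. For miR-6819-3p, from the non-muscle myosin gene MYH9, reads were 3, 6, 8 and 3 and the log2 fold change was 3.67 ± 0.89 (edgeR adjusted p = 0.104). For miR-6786-3p, from the endosomal sorting gene HGS, reads were 5, 2, 6 and 2 and the log2 fold change was 3.48 ± 0.96 (edgeR adjusted p = 0.116). For miR-6737-3p, in an intron shared by the zinc transporter gene SLC39A1 and AL358472.7, reads were 8, 4, 8 and 3 and the log2 fold change was 3.25 ± 0.89 (edgeR adjusted p = 0.115). In each of these the 4 raw counts were 2 to 8 reads, so the gap between groups lies in what a read was worth in each library. A smaller change was that of miR-6803-3p, from the phosphatase regulator PPP6R1, with 13, 18, 6 and 3 reads and a change of 1.72 ± 0.85 in log2 (edgeR adjusted p = 0.222).

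**Figure D3:**
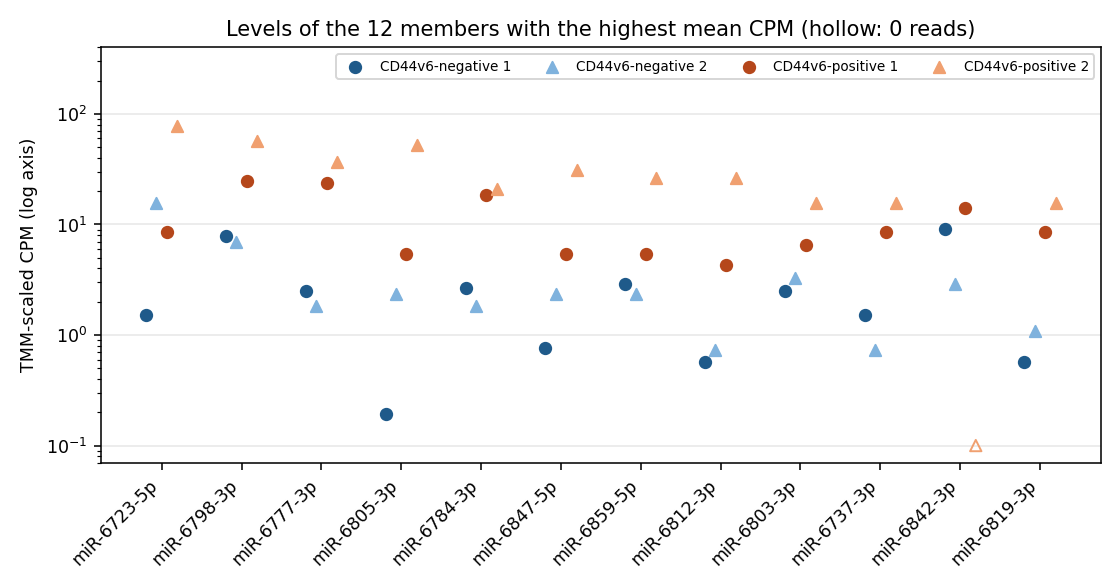
TMM-scaled CPM of the 12 members with the highest mean level in each of the 4 samples, on a log axis, with a hollow mark for 0 reads. CD44v6-positive sample 2 was the highest sample for all 12 but miR-6842-3p, of which it had 0 reads. Choice by mean CPM favours members with reads in that sample, where a read was worth most, so this pattern supports nothing.

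Among the 5p members, miR-6735-5p had the lowest edgeR adjusted p. It had 4, 3, 11 and 2 reads, or 0.765, 0.544, 11.9 and 10.4 CPM, at 0.655 ± 0.157 against 11.1 ± 1.02 CPM (SD, n = 2). The log2 fold change was 4.04 ± 0.83 with an edgeR adjusted p of 0.0787, and in CD44v6-positive sample 2 it rests on 2 reads. The most read member, miR-6723-5p, gave no such gap: its 8, 87, 8 and 15 reads were 1.53, 15.8, 8.63 and 78.2 CPM, and the groups overlapped. Its log2 fold change of 2.14 ± 1.41 (edgeR adjusted p = 0.348) ran from 0.29 without CD44v6-positive sample 2 to 4.80 without CD44v6-negative sample 2.

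Both miR-6847-5p and miR-6859-5p stood higher in the CD44v6-positive samples without passing. The reads of miR-6847-5p were 4, 13, 5 and 6, and its log2 fold change was 3.23 ± 1.17 (edgeR adjusted p = 0.135). Those of miR-6859-5p, which 4 identical hairpins can give, were 15, 13, 5 and 5, and its log2 fold change was 2.28 ± 1.00 (edgeR adjusted p = 0.182). Its source among the 4 cannot be told apart.

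Only 4 tested members had a log2 fold change below 0, and edgeR called none of them. The 5p member miR-6886-5p had 13, 88, 2 and 1 reads, or 2.49, 16.0, 2.16 and 5.21 CPM. Its groups overlapped, and CD44v6-negative sample 2 alone was high. The log2 fold change was -1.65 ± 1.34 (edgeR adjusted p = 0.450). For miR-6765-3p, from JAG2, reads were 8, 28, 0 and 1 and the log2 fold change was -1.59 ± 1.78 (edgeR adjusted p = 0.580). For miR-6844 they were 2, 20, 0 and 1, with -0.88 ± 2.11 (edgeR adjusted p = 0.80), and for miR-6824-3p, from the anion exchanger gene SLC26A6, they were 20, 19, 1 and 1, with -0.83 ± 1.11 (edgeR adjusted p = 0.636). The last 3 changed sign without CD44v6-positive sample 1, to 0.51, 1.21 and 0.39, when the kept CD44v6-positive sample held 1 read of each. A similar case was miR-6842-3p, with 48, 16, 13 and 0 reads, whose log2 fold change was 0.63 ± 1.104 (edgeR adjusted p = 0.719). It was -7.45 without CD44v6-positive sample 1, when no read was left in that group.

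The 10 members whose CD44v6-positive samples lay below both CD44v6-negative samples were all at or near 0 reads there. Of these, 9 had 0 reads in both CD44v6-positive samples: miR-6715b-3p, miR-6733-5p, miR-6742-3p, miR-6768-5p, miR-6783-3p, miR-6806-3p, miR-6836-5p, miR-6840-5p and miR-6850-3p. The other, miR-6862-5p, had 1 read in CD44v6-positive sample 1. The limit that 0 reads allow was 3.24 and 15.6 CPM in the CD44v6-positive samples. The highest level of any of the 10 in a CD44v6-negative sample was 4.35 CPM, for miR-6850-3p with 24 reads, so at this depth a lower level was not detectable in CD44v6-positive sample 2 for any of them.

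On the arms, 3p products prevailed. The 3p members held 1142 reads and the 5p members 546, so the 3p arms had 67.7% of reads with an arm. In CD44v6-negative samples 1 and 2 the 3p share was 73.8% (exact 95% interval 69.8 to 77.5) and 61.3% (57.8 to 64.7). In CD44v6-positive samples 1 and 2 it was 75.2% (69.7 to 80.1) and 63.6% (53.4 to 73.1). The groups overlapped, at 67.5% ± 8.86 against 69.4% ± 8.16 (SD, n = 2), and the samples numbered 2 were the lower ones in each group. Without miR-6723-5p the 4 shares were 75.0%, 69.0%, 77.3% and 75.0%. A hairpin was placed for only 50 of the 64 members, and 44 of these lay at an intron end, a set formed after seeing the data. The set leaves out members without a placed hairpin, 3p and 5p arms alike, so its values do not stand for all members. In it the groups did not overlap: the shares were 74.9%, 69.0%, 86.6% and 85.5%, or 71.9% ± 4.15 against 86.0% ± 0.749 (SD, n = 2). Without miR-6886-5p, which was high in CD44v6-negative sample 2 alone, they were 77.5%, 82.8%, 87.4% and 86.8%. Over all other rows, 3p arms held 19.5%, 30.0%, 36.9% and 43.6% of reads with an arm.

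Single hairpins leaned strongly to 1 arm. Of the 138 precursors of the range with both arms in the table, 48 had a member, and 32 of these had more 3p reads and 16 more 5p reads. The exact 95% interval of the 3p share lay above 50% in 29, below it in 11 and held it in 8. No read of the other arm was found for 11 precursors. For miR-6798, 113 reads were 3p and 1 was 5p (99.1% 3p, interval 95.2 to 100.0). For miR-6842 the counts were 77 and 0, for miR-6784 45 and 0, for miR-6765 37 and 0, and for miR-6824 41 and 1. The 5p arm led for miR-6886, with 2 3p reads against 104 5p reads, and for miR-6859, with 4 against 38. These are reads of both arms summed over the samples, with the member chosen by its reads, so the leading arm of a hairpin was favoured by the rule.

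Both arms were members in 4 hairpins. In miR-6777 the 3p arm had 52 reads and the 5p arm 15, 7, 4, 4 and 0 by sample, so the 3p share was 77.6%. In miR-6763 the 3p arm had 1, 8, 1 and 2 reads and the 5p arm 10, 9, 4 and 0, and neither arm led beyond counting error. In miR-6735, 14 3p and 7 5p reads lay in the CD44v6-negative samples and 3 3p and 13 5p reads in the CD44v6-positive samples, so the leading arm changed. In miR-6850 the counts were 31 and 9 against 0 and 5. Of the 43 precursors with reads in both groups, the same arm led in both in 37, the arms traded places in 5, and 1 was tied in a group. The changes of arm in miR-6735 and miR-6850 were chosen after their values were seen and were not tested.

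**Figure D4:**
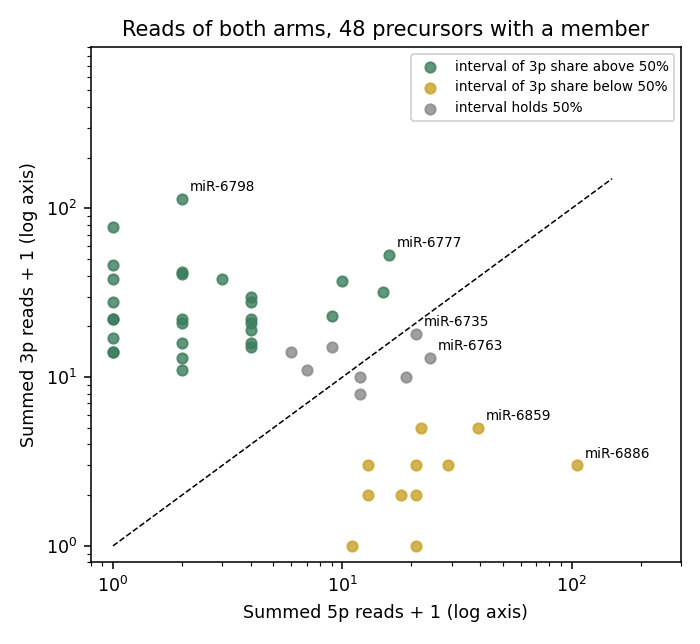
Reads of the 3p arm against reads of the 5p arm for the 48 precursors with a member, summed over the 4 samples, as counts plus 1 on log axes, with the dashed line marking equal counts. Colours give the side of 50% on which the exact interval of the 3p share lies, and 29 precursors are on the 3p side and 11 on the 5p side.

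Most members whose hairpin was placed shared its position in the host gene. Hairpins of 48 of the 60 precursors were placed against the introns of GENCODE release 29 on the same strand, within a tolerance of 3 bases. In 42 of 48 (87.5%, exact 95% interval 74.8 to 95.3) an end of the hairpin was an intron end. In 41 it was the 3′ end alone, with the rest of the intron upstream, and 1, MIR6765, was a whole intron. No hairpin lay at a 5′ end alone. The other 6 were MIR6715A, MIR6715B, MIR6716, MIR6721, MIR6840 and MIR6852. Of these, MIR6715A and MIR6715B lie on opposite strands of the same place, while MIR6716, MIR6721, MIR6840 and MIR6852 overlap an exon of PHLDB1, AGPAT1, PILRB and TLN1 in that order. Exon overlap does not set them apart, since hairpins at intron ends such as MIR6733 and MIR6886 also overlap an exon. Among rows with a read outside the number range, 47 of 720 precursors (6.53%, 4.84 to 8.59) had a hairpin end at an intron end. With a tolerance of 10 bases the counts were 45 of 48 for members, 3 of them whole introns, and 56 of 720 for the rows outside the range.

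The match was exact to the base. Of 54 hairpin loci of members, 48 (88.9%) ended on the last base of an intron. Among loci of miRNAs with a read outside the number range, 42 of 764 (5.50%) did. The 5′ ends showed no such match, at 1.85% of member loci and 1.83% of the others. The introns with a member hairpin at an end were 79 to 7637 bases long with a median of 239, and 19 of 48 were under 200 bases. Where several annotated introns shared that end, the longest was taken on the plus strand and the shortest on the minus strand. These lengths depend on that choice. The hairpins were 57 to 113 bases long with a median of 66.5, so most introns left a tail upstream of the hairpin. Over the whole range, members or not, 139 of 152 precursors (91.4%) had an end at an intron end. The number range was taken as one rich in predicted mirtrons and tailed mirtrons, so these matches describe the members and support nothing.

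**Figure D5:**
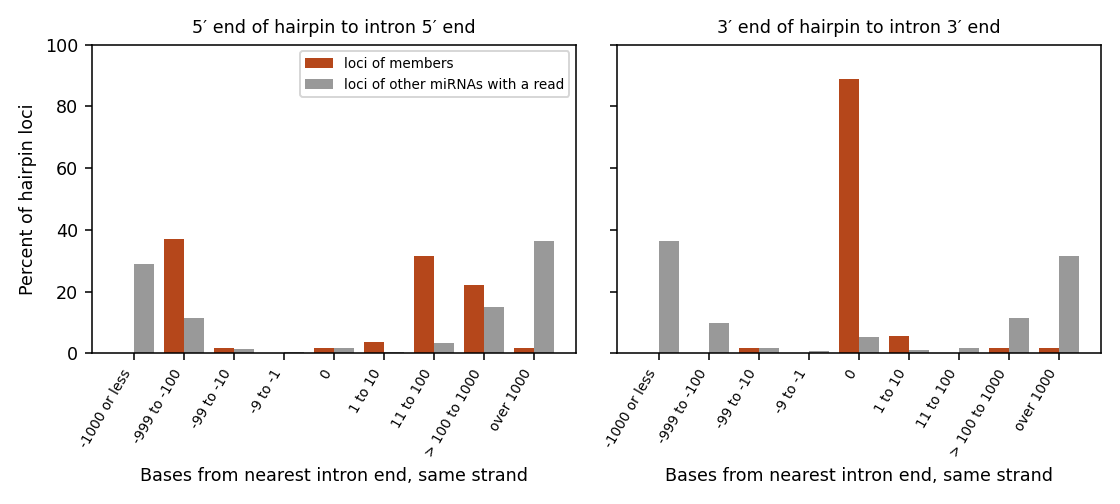
Distance in bases from the hairpin end to the nearest intron end on the same strand, as percent of loci, for 5′ ends (left) and 3′ ends (right). Shown are 54 member loci and 764 other loci, those of miRNAs with a read outside the number range. At the 3′ end 88.9% of member loci lie at distance 0, against 5.50% of other loci.

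The mature sequences carried marks of an intron's 3′ end, which go with that position of the hairpins and are no separate support. Of the 38 3p members with a sequence, 29 (76.3%, exact 95% interval 59.8 to 88.6) ended in AG, the letters that end an intron, and 25 (65.8%) ended in CAG. Among detected 3p rows outside the number range 50 of 434 (11.5%, 8.67 to 14.9) ended in AG and 7.60% in CAG. Of all detected 3p rows of the range, members or not, 85 of 113 (75.2%) ended in AG, so the ending is not particular to the members. Pyrimidines made up a median of 72.7% of 3p members against 54.5% of 3p rows outside the range, and 35.8% of 5p members against 47.8%. Median GC content was 63.6% in 3p members and 62.2% in 5p members, against 50% in each arm of rows outside the range. Of the 14 5p members with a sequence, 0 began with GU, the letters that open an intron.

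GC content moved with the log2 fold change across miRNAs outside the set. Over 479 tested miRNAs that were not members, Pearson's r was 0.437 and Spearman's rho 0.491, across miRNAs that share the same 4 libraries and are not independent replicates. The median log2 fold change of those miRNAs was -1.62 below 40% GC, -0.61 from 40% to 50%, 0.18 from 50% to 60% and 0.75 at 60% or more. Only 20 of 26 tested members (76.9%) had a GC value. Their median log2 fold change was 2.36 from 50% to 60% GC (5 members) and 2.20 at 60% or more (15 members). The filter let most tested members in through the samples where they were high, so these medians describe them only. The part of GC in the members' levels was not tested.

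Classical mirtrons, the 20 rows of the longer-known hairpins that fill whole introns, gave the nearest comparison. All 11 of their precursors filled an intron within 3 bases, in contrast to 1 of 48 for the members, and 6 of 8 of their 5p sequences began with GU. Their reads were mostly 5p, with 3p shares of 12.2%, 12.7%, 12.5% and 9.33%, set by miR-877-5p, with 1095, 2306, 702 and 342 reads. Their share of all reads was 168, 608, 898 and 2499 RPM, in the same order of samples as that of the members. The 9 tested rows all had a log2 fold change above 0 (background 44.6%), with a median of 2.01. In 6 the groups were apart on the upper side (background 24.9%). They passed the same filter on low counts as the members, so these counts describe them only. edgeR called 0, and DESeq2 called 2, miR-877-5p and miR-1237-3p, both higher (background 8% higher). For miR-877-5p the levels were 314 ± 148 against 1270 ± 725 CPM (SD, n = 2) and the log2 fold change was 2.01 ± 0.65 (edgeR adjusted p = 0.123), while for miR-1226-3p it was 0.38 ± 0.66 (edgeR adjusted p = 0.719). No test of members against classical mirtrons was run.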

How the data were processed

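Small RNA was extracted from sorted cells, made into libraries with a TruSeq kit, pooled and gel-selected at about 148 nt, per the labels' protocols. The authors deposited raw counts of reads per mature miRNA, which were used here. The submitters' processing notes name CASAVA 1.8.2, cutadapt 1.10, Bowtie 0.12.9, DESeq2 and GRCh38. What each did, the miRNA annotation and how reads with several matches were handled is not given in the sources used here, so counts of near-identical miRNAs are uncertain. The labels' 8 sequencing entries fall into 4 combined columns, counted as 4 samples, 2 per group.

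edgeR 4.0.16 under R 4.3.3 gave the test (quasi-likelihood, TMM, filterByExpr at min.count 10 and min.total.count 15), fitted on all 570 miRNAs that passed, with Benjamini-Hochberg adjustment. Log2 fold changes are CD44v6-positive minus CD44v6-negative. The script was also run on simulated counts. Their variation was set in advance and not taken from these libraries, so that run does not bear on the power of the test here. DESeq2 1.42.0 and limma 3.58.1 (voom) were alternatives. Intervals are Clopper-Pearson and cover counting error only, since PCR reads are not independent molecules. Expected detection is hypergeometric. The members and lists, classical mirtrons and markers included, were chosen with earlier results of these data known. Named were the 12 members with the highest mean CPM, the 6 largest fold changes in each direction, hairpins with both arms as members, and rows at the read limit. The tested members below 0 numbered only 4. A position and its sequence are not reported here.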

Additional observations from a re-analysis of the deposited data

How the results depend on the processing

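Calls over all miRNAs, 0 with edgeR, were 75 with DESeq2, 4 with limma-voom, 48 with total count scaling, 77 without a filter, 10 with a GC correction and 26 to 55 when each sample was left out in turn; calls among members, also 0, were 8, 0, 4, 5, 0 and 0 to 5. Upper quartile and RLE scaling and a 10 CPM filter gave 0 calls. With the replicate block there were 228 calls and 14 among members, all higher, and with the block and a GC correction 111 and 6. The GC fits covered only 499 miRNAs and 20 members, with a median log2 fold change of members of 1.74, or 1.75 with the block, and miR-6723-5p, miR-6735-5p, miR-6747-3p and miR-6847-5p, called with the block, had no GC value. The labels do not say that the numbers pair the samples. The correlation of deviations was 0.375 with only 2 pairs, so the block is a hint from the data. The median log2 fold change of tested members, 2.24, was 1.09 without a filter, 3.30 over 5 members with a 10 CPM filter, and 1.46 to 2.99 with a sample left out.

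Of 211 alternative values for 18 named members, 162 kept direction and side of the threshold, 44 passed it and 5 changed sign: miR-6842-3p (-7.45), miR-6765-3p (0.51), miR-6844 (1.21) and miR-6824-3p (0.39) without CD44v6-positive replicate 1, which left 0 or 1 read in that group (the other ends of their ranges with a sample left out were 1.70, -6.65, -5.93 and -1.50), and miR-6844 with limma-voom (0.60), whose cause was not tested. Where 1 sample was left, it was assumed to vary like the others. The set of members at intron ends was added after seeing the data and leaves out members without a placed hairpin. Its 3p share was 86.0% in CD44v6-positive and 71.9% in CD44v6-negative samples, and without miR-6886-5p 87.1% and 80.1% in that order. Depth limits every value of CD44v6-positive sample 2, which held 154481 reads.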
